A study of Homo sapiens with 3 samples.

Results

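HDAC3 is the catalytic subunit of the NCoR corepressor complex, and its transcript and those of 8 related genes were followed in MDA-MB-231 cells, an established line from a human breast tumour that lacks hormone receptors. The members were chosen by gene symbol and found through their Ensembl IDs: HDAC3, NCOR1, TBL1X, TBL1XR1 and GPS2 of the complex, the related deacetylases HDAC1 and HDAC2, the NAD-dependent deacetylase SIRT1 and the acetyltransferase EP300. All 9 were present among the 48162 gene IDs of each library. Of these, 8 reached a mean of at least 1 FPKM over the 3 libraries, among 12649 named genes that did so; GPS2 did not. FPKM counts the fragments of a gene per kilobase of its transcript and corrects for library depth.

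RNA was sequenced from 3 cultures, 1 library per group: a control, cells depleted of FoxO3, and cells depleted of Geminin as well as FoxO3 (the double depletion, written co-depletion in the plots). Every culture was exposed to lentivirus for 24 h and harvested 72 h after the medium was changed, the control included. The labels do not name the construct of the control or the sequences used for depletion. Since a group is 1 library, the differences below set one library against another, without replicates and without p-values. In such bulk samples, fewer cells of a kind and less RNA per cell cannot be told apart. The comparisons address whether the genes of the deacetylase machinery said to link Geminin with FoxO3 differ in RNA level when those factors are depleted; acetylation itself was not measured.

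Histone deacetylases remove acetyl groups from lysines in histones and in other proteins, transcription factors of the FoxO family among them. HDAC3 is nearly inactive alone and gains activity when bound by a scaffold protein such as NCOR1, which also holds TBL1X, TBL1XR1 and GPS2 and is recruited to genes by unliganded nuclear receptors and other repressors. HDAC1 and HDAC2 act in the separate SIN3, NuRD and CoREST complexes, while EP300 and its paralogue CREBBP add the acetyl groups.

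The promoters of 3 members are shown because FoxO3 is a forkhead transcription factor that binds DNA, so the letters near a start site are the first place a reader would look. RefSeq windows from 250 bases before to 50 bases after an annotated start (GRCh38.p14) were matched for all 9 members, giving 12 windows. Both strands were searched for GTAAACA, the word that FoxO factors are known to bind, and for a variant of it that other forkhead factors also bind, ATAAACA. The words share 6 letters but cannot match at the same place, and a match is printed in capitals. The HDAC3 window (chr5:141636800-141637099, minus strand) holds neither. TBL1XR1, the 1 analysed member past 1.5-fold against the control, has 2 windows, of which the second (chr3:177196429-177196728, minus strand) holds the variant on its other strand, read as TGTTTAT, starting 29 bases after the start site. The second NCOR1 window (chr17:16194590-16194889, minus strand), with a GC content of 26.3%, holds the same letters 21 bases after its start.
HDAC3: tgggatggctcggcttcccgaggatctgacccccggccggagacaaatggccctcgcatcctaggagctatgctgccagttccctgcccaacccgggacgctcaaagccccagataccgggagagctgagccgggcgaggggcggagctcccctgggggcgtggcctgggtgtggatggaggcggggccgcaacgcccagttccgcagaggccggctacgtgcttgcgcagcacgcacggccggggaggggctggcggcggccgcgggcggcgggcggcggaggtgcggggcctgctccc
TBL1XR1 second start: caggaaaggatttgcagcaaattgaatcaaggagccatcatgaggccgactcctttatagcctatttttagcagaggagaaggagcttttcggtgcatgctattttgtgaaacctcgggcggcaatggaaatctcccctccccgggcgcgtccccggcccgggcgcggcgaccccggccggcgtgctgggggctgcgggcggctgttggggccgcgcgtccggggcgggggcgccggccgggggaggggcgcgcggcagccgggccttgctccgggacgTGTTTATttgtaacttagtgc
NCOR1 second start: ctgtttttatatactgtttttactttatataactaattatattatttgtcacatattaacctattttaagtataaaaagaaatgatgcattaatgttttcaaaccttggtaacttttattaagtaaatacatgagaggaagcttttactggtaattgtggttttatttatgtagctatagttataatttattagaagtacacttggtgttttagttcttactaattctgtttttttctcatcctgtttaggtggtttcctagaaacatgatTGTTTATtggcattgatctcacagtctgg
The other windows of these genes and those of the other 6 members held neither word, and the FoxO word GTAAACA was in 0 of the 12. Of 35116 windows of this length in the table, 3.42% held GTAAACA and 4.24% held ATAAACA on either strand, or 7.43% at least 1 of them, against 2 of the 12 here. A match describes letters and is no evidence of binding, and its absence here says nothing of sites elsewhere. With GC contents from 26.3% to 78.3%, 10 of the 12 windows lay above 60%, whereas the transcripts of the members ranged from 38.0% for TBL1XR1 to 57.3% for GPS2.

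The libraries rest on inferred totals of 14507410, 10760613 and 12267332 reads in the control, the FoxO3 depletion and the double depletion, the order used for all sets of 3 values below. FOXO3 stood at 12.2, 2.79 and 2.94 FPKM and GMNN, which encodes Geminin, at 112.3, 112.2 and 37.0 FPKM, so each targeted gene was low where the label says it was targeted. DICER1, the ribonuclease that matures microRNAs, stood at 39.3, 14.8 and 17.9 FPKM. Its transcripts have a GC content of 40.7%, and its log2 ratios to the control were -1.35 and -1.09. With the median of genes of like GC content subtracted, they were -0.85 and -0.67. Of 7 genes known to be high in this line all had a mean above 1 FPKM, with VIM from 574.3 to 607.3, and the hormone receptor genes ESR1 and PGR were at 0.12 FPKM or less. Of the other 4 genes listed as low or lacking in the line, CDH1 was at 0.42 to 1.02 FPKM, but ERBB2 stood at 38.0 to 46.8, EPCAM at 8.95 to 13.7 and GATA3 at 8.78 to 12.6. Marker genes of leukocytes summed to between 8.45 and 9.91 FPKM, of which CD14 made up 6.76 to 8.59, with CD3E and CD68 at 0. Endothelial markers summed to 5.70, 7.13 and 5.83 FPKM, nearly all from KDR, and those of the HEK293 packaging line to 40.4, 30.4 and 28.0, nearly all from IGF2BP3, with LIN28B at 0.02 or less. Fibroblast markers summed to 30.1, 54.7 and 52.4 FPKM, chiefly through COL1A1, COL1A2 and PDGFRB, with DCN at 0.06 or less; the part of such differences in the members' values was not tested.

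Within the complex, HDAC3 (ENSG00000171720) stood at 77.6, 88.3 and 92.8 FPKM, from 897, 757 and 907 reads. The control was thus the lowest of the 3 libraries. The FPKM ratio to the control was 1.14 (1.03 to 1.255) in the FoxO3 depletion and 1.20 (1.09 to 1.31) in the double depletion. Ranges in brackets are 95% Clopper-Pearson intervals from the read counts, which cover counting error only. Between the depleted libraries the ratio was 1.05 (0.95 to 1.16), which spans 1. On the scale of log2 (FPKM + 1), on which a gene is called past 1.5-fold at 0.58 in either direction, HDAC3 differed by 0.18 and 0.25 from the control, so it was not called.

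NCOR1 (ENSG00000141027), the scaffold that binds and activates HDAC3, stood at 96.8, 91.1 and 92.6 FPKM, from 1473, 1028 and 1191 reads. Its ratio to the control was 0.94 (0.87 to 1.02) in the FoxO3-depleted library and 0.96 (0.89 to 1.03) in the other. Both intervals hold 1 with these reads, the smallest whole numbers that fit. If the true reads are a whole multiple of them, the intervals are narrower and may leave out 1.

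TBL1XR1 (ENSG00000177565), a WD-repeat subunit that takes part in the exchange of corepressors for coactivators, was the only member past 1.5-fold against the control in the deposited values, 1 of 8 in each comparison where 20.7% and 16.3% of all analysed genes were past it. It stood at 71.1, 42.9 and 45.5 FPKM, from 1682, 753 and 910 reads. The control was the highest library and the depleted ones lay close together. The ratio to the control was 0.60 (0.55 to 0.66) after FoxO3 depletion and 0.64 (0.59 to 0.69) in the double depletion, or log2 ratios of -0.72 and -0.63. TBL1XR1 is rich in A and T, and its transcripts have a GC content of 38.0% against a median of 49.0% for all analysed genes. When all analysed genes were cut into 50 bins by GC content, TBL1XR1 fell in a set of 253 genes. In the FoxO3 depletion the median log2 ratio of that set was -0.72, and the middle 50% of genes ran from -1.02 to -0.40. TBL1XR1 was itself the median gene of that set there. After subtraction of such medians its log2 ratio was 0.00 in the FoxO3 depletion and -0.10 in the double depletion, and it was no longer called in either.

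TBL1X (ENSG00000101849), the X-linked paralogue of TBL1XR1, had its highest level elsewhere. It stood at 34.3, 44.5 and 34.9 FPKM, from 1323, 1273 and 1137 reads. The library depleted of FoxO3 alone was the highest, and the other two lay together. Its ratio to the control was 1.30 (1.20 to 1.40) after FoxO3 depletion and 1.02 (0.94 to 1.10) in the double depletion. Between the depleted libraries the ratio was 0.78 (0.72 to 0.85), a log2 ratio of -0.34 that did not reach 1.5-fold. TBL1X was the only member whose interval left out 1 in that comparison, in which 20.8% of all analysed genes had such an interval. Its GC content of 50.6% is near the median of all genes, and the GC-adjusted log2 ratio was -0.33.

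GPS2 (ENSG00000132522), the subunit that joins the scaffold and the TBL1 proteins, was listed at only 0.39, 0.78 and 1.07 FPKM, from 6, 9 and 14 reads. The ratios to the control, 2.02 (0.64 to 6.90) and 2.76 (0.996 to 8.76), are too imprecise to give a direction. Of the 3089 exon bases of GPS2 in GENCODE 29, 44.7% are also exons of AC026954.2 on the same strand, a gene listed at 0 in all 3 libraries, and 7.80% are exons of EIF5A on the opposite strand, listed at 442.1 to 566.0 FPKM. The sources used here do not say how reads in shared exons were counted, so the level of GPS2 is uncertain. For the other 8 members the largest such overlap with 1 gene was 9.20%, that of HDAC3 with the antisense gene AC008781.1, which was at 0.13 FPKM or less. The 7 pseudogenes of members found by name reached at most 0.10 FPKM.

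**Figure D1:**
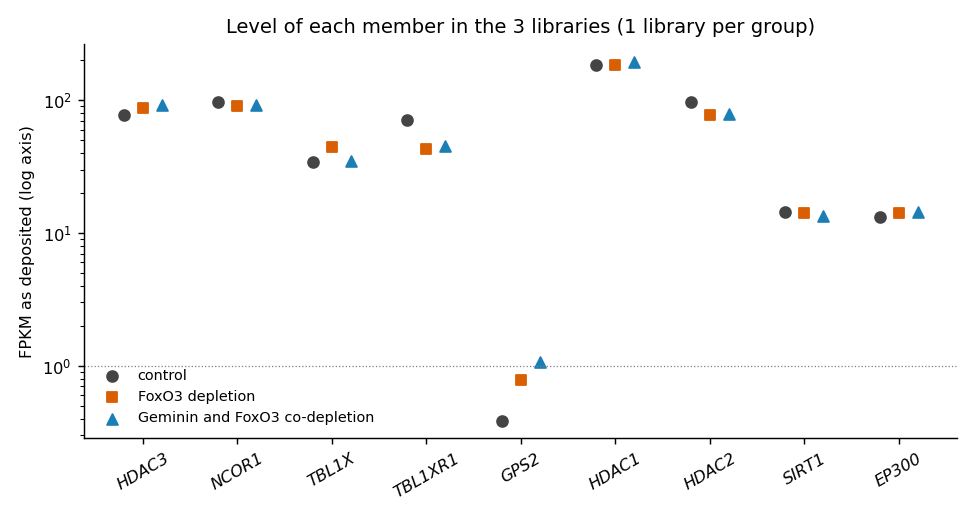
Deposited FPKM (log axis) of the 9 members in the control (circles), the FoxO3 depletion (squares) and the double depletion (triangles), 1 library each, with a dotted line at 1 FPKM. HDAC1 is highest at 185 to 195 FPKM and GPS2 lowest at 0.39 to 1.07, and TBL1XR1 is higher in the control, at 71.1, than in the depleted libraries, at 42.9 and 45.5.

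Among the other deacetylases, HDAC1 (ENSG00000116478), the catalytic subunit of SIN3, NuRD and CoREST, stood at 186, 185 and 195 FPKM, from 3006, 2219 and 2661 reads. Its ratios to the control were 0.995 (0.94 to 1.05) and 1.05 (0.99 to 1.10). The best measured member by reads thus differed by no more than its counting error.

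HDAC2 (ENSG00000196591), which shares those complexes with HDAC1, stood at 97.1, 76.9 and 78.4 FPKM, from 2595, 1525 and 1772 reads. The ratio to the control was 0.79 (0.74 to 0.84) in the FoxO3 depletion and 0.81 (0.76 to 0.86) in the double depletion, short of 1.5-fold. Its transcripts have a GC content of 39.7%, and genes of like GC content had median log2 ratios of -0.62 and -0.48. The GC-adjusted log2 ratios were 0.28 and 0.18, opposite in sign to the unadjusted -0.33 and -0.30.

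SIRT1 (ENSG00000096717), a deacetylase of FoxO proteins that uses NAD, stood at 14.4, 14.2 and 13.5 FPKM, from 540, 395 and 431 reads. The ratios to the control were 0.99 (0.86 to 1.12) and 0.94 (0.83 to 1.07), and both intervals span 1. SIRT1 fell in the same set of 253 genes by GC content as TBL1XR1. Against the median of that set its adjusted log2 ratio was 0.70 in the FoxO3 depletion, past 1.5-fold upward, and 0.46 in the double depletion. The direct comparison with the control and the comparison with genes of like composition therefore give different calls for SIRT1, as they do for TBL1XR1.

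EP300 (ENSG00000100393), which acetylates histones and FoxO proteins, stood at 13.2, 14.3 and 14.4 FPKM, from 1833, 1470 and 1694 reads. The ratios to the control were 1.08 (1.01 to 1.16) and 1.09 (1.02 to 1.17). CREBBP, its paralogue, stood at 59.0, 68.6 and 67.9 FPKM, with log2 ratios of 0.22 and 0.20. The ratio of EP300 to CREBBP had an interval that spans 1 between any 2 libraries.

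**Figure D2:**
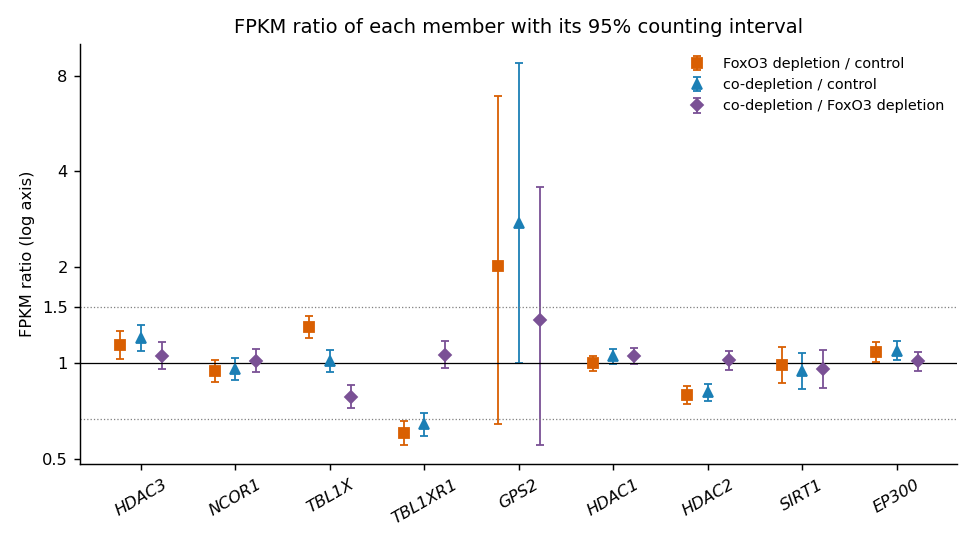
FPKM ratio (log axis) of each member in the 3 comparisons, with exact 95% intervals that cover counting error only and dotted lines at 1.5-fold. TBL1XR1 lies below the lower dotted line in both comparisons with the control, at 0.60 and 0.64, TBL1X is at 1.30 in the FoxO3 depletion alone, and the intervals of GPS2 are wide because it rests on 6 to 14 reads.

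In the FoxO3 depletion 1 of 8 analysed members was past 1.5-fold, TBL1XR1, downward, where 20.7% of all analysed genes were past it in either direction and 16.7% downward. In the double depletion the count was again 1 of 8, against 16.3% in either direction and 12.3% downward. Between the depleted libraries it was 0 of 8, against 1.97%. These shares are near the background and are no result about the members. Upward the background was 4% and 4.02%, and 0 members were called. Past 2-fold were 0 of 8 members in every comparison, against 5.9%, 2.88% and 0.19% of all genes, and past a log2 ratio of 0.32 in size were 3, 1 and 1, against 44.4%, 40.4% and 11.8%. After GC adjustment 1, 0 and 0 members were past 1.5-fold, against 14.2%, 10.2% and 1.77% of genes, and after adjustment for GC and length the counts were the same, against 14%, 10.2% and 1.76%. Between the depleted libraries 0.617% of genes were called lower and 1.35% higher. The counting interval left out 1 for 5 of 8 members in the FoxO3 depletion and for 4 of 8 in the double depletion, where 56.7% and 54.7% of all genes did so. These counts rest on the smallest whole reads that fit each gene. The median size of the log2 ratio, regardless of sign, was 0.14 over the members and 0.28 over all genes in the FoxO3 depletion, 0.10 and 0.26 in the double depletion, and 0.06 and 0.11 between the depleted libraries. The signed medians were -0.01 for the members and -0.07 for all genes in the FoxO3 depletion and -0.02 and -0.06 in the double depletion. The comparisons with the control share that library, so their likeness is not independent.

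GC content moved with the ratios of all genes, and the members spread along it. Spearman's rho of the log2 ratio with GC content, taken over genes that are not replicates of each other, was 0.41 in the FoxO3 depletion, 0.44 in the double depletion and -0.07 between the depleted libraries. The 3 members poorest in GC, TBL1XR1, SIRT1 and HDAC2, at 38.0% to 39.7%, include the 2 lowest ratios and 1 near 0. For the other 5 analysed members, at 46.5% to 51.6%, the GC-adjusted log2 ratios lay closer to the unadjusted ones. GC-adjusted, HDAC3 was at 0.11 in the FoxO3 depletion and 0.22 in the double depletion; adjusted for transcript length as well, it was at -0.01 and 0.13. The part of composition in the single members' values was not tested.

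**Figure D3:**
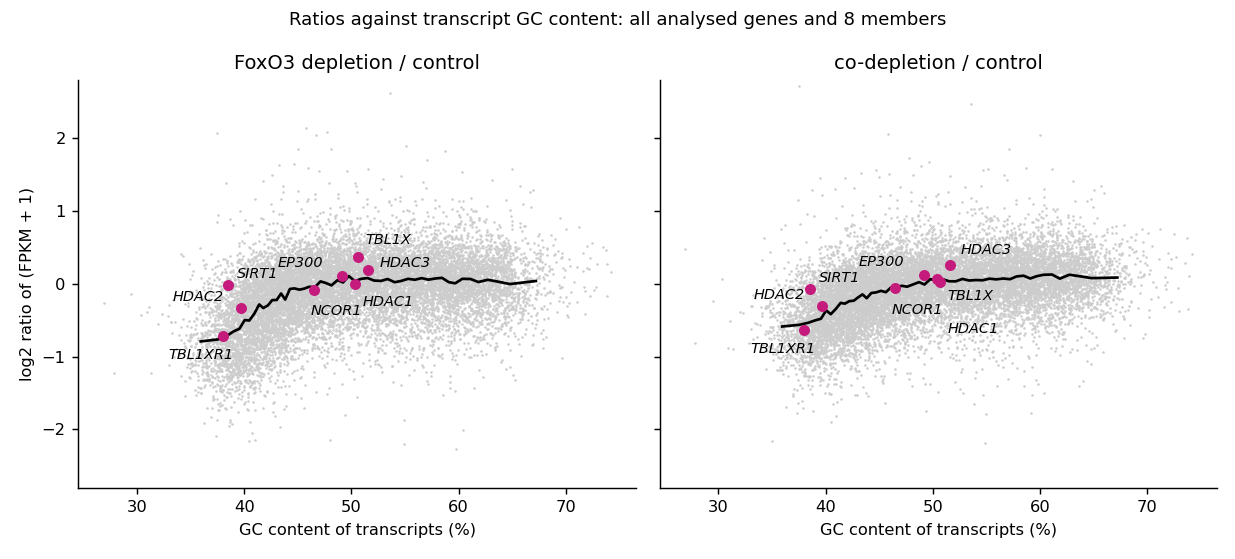
Log2 ratio of (FPKM + 1) to the control against the GC content of transcripts for all 12649 analysed genes (grey), the medians of 50 GC bins (black line) and the 8 analysed members (coloured), for the FoxO3 depletion (left) and the double depletion (right). TBL1XR1 lies on or near the line at its GC content of 38.0%, whereas SIRT1 at 38.5% lies above it.

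Ratios between 2 genes within a library do not depend on library size, and they describe how the make-up of the transcripts for the complex differed. The pairs were chosen with the levels known, so they carry no test. The FPKM of TBL1X divided by that of TBL1XR1 gave 0.48, 1.04 and 0.77. That is a 2.15-fold higher ratio than the control's with FoxO3 depleted (1.91 to 2.42) and a 1.59-fold higher one with both factors depleted (1.42 to 1.78). In the double depletion, which of the paralogues is higher depends on the transcript length used. There TBL1XR1 was higher by FPKM, but per kilobase of the longest transcript TBL1X was, at 13.1 against 9.33. In the control and the FoxO3 depletion the order was the same on both scales. The folds between libraries do not depend on that length. TBL1XR1 has a low GC content, as above, and the part of GC content in these folds was not tested. After GC adjustment the log2 ratios of TBL1X and TBL1XR1 to the control were 0.30 and 0.00 in the FoxO3 depletion. In the double depletion they were -0.04 and -0.10.

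The FPKM ratio of HDAC3 to NCOR1 was 0.80, 0.969 and 1.002, which is 1.21-fold (1.06 to 1.37) and 1.251-fold (1.11 to 1.41) that of the control. HDAC3 per HDAC2 was 0.80, 1.15 and 1.18. HDAC2 has a low GC content, 39.7%, and this order did not hold throughout after GC adjustment. In the FoxO3 depletion the adjusted log2 ratios to the control were 0.11 for HDAC3 and 0.28 for HDAC2. In the double depletion they were 0.22 and 0.18. Among the class I deacetylases HDAC1, HDAC2, HDAC3 and HDAC8, HDAC3 made up 19.8%, 23.4% and 23.6% of the summed FPKM, and HDAC2 24.8%, 20.4% and 19.9%. These shares depend on the lengths behind FPKM: per kilobase of the longest transcript HDAC3 was above HDAC2 in the control, at 31.6 against 18.1. HDAC8, the class I enzyme that works outside such complexes, stood at 30.6, 26.3 and 27.2 FPKM.

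**Figure D4:**
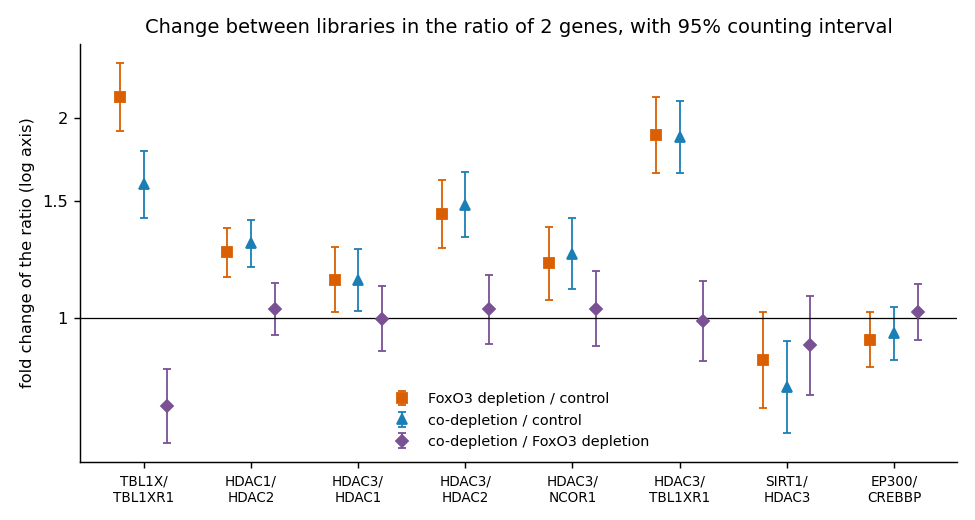
Fold change between libraries of the ratio of 2 genes (log axis), for 8 pairs and 3 comparisons, with conditional exact 95% intervals of the read odds ratio that cover counting error only. TBL1X over TBL1XR1 shows the largest difference among these pairs, 2.15-fold in the FoxO3 depletion, and EP300 over CREBBP stays near 1.

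Levels between members depend on the transcript length behind each FPKM. The recovered reads imply a length of 9585 bases for EP300, close to its longest transcript of 9587 bases in GENCODE 29, but of 797 for HDAC3, whose longest is 1959, and of 1049 or a whole multiple of it for NCOR1, whose longest is 10720. By deposited FPKM in the control the order was HDAC1, HDAC2, NCOR1, HDAC3, TBL1XR1, TBL1X, SIRT1, EP300 and GPS2. HDAC2 at 97.1 and NCOR1 at 96.8 FPKM are not separable. With reads divided by the longest transcript instead, HDAC1 was at 86.0 reads per kilobase on the FPKM scale, HDAC3 at 31.6, HDAC2 at 18.1, TBL1XR1 at 14.6, EP300 at 13.2, TBL1X at 12.9, NCOR1 at 9.47 and SIRT1 at 9.09. With the smallest whole reads that fit, HDAC1 led and GPS2 was last on both scales, while NCOR1 moved from the third to the seventh place. A whole multiple of the NCOR1 reads would place it higher, so its place on the second scale is uncertain. Ratios between libraries are the same on either scale.

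The wider machinery was read from lists of known subunits. Their counts stand against the 16.7% and 12.3% of all analysed genes that were lower past 1.5-fold in the FoxO3 depletion and the double depletion, and the 4% and 4.02% that were higher. Of 6 genes of the NCoR core, 5 were analysed, with 1 lower and 0 higher past 1.5-fold in each comparison with the control and medians of 0.18 and 0.02, against -0.07 and -0.06 over all genes. CORO2A, a further subunit, stood at 7.56, 10.8 and 9.88 FPKM. Of 11 zinc-dependent deacetylases 10 were analysed, and of these and the 7 sirtuins 0 passed 1.5-fold in any of the 3 comparisons. The medians were -0.02 and 0.06 for the deacetylases and -0.02 and 0.05 for the sirtuins. With pseudocounts of 0.1 or 0.5 FPKM, 1 sirtuin was higher past 1.5-fold in the FoxO3 depletion and 1 lower between the depleted libraries. After GC adjustment 1 sirtuin, SIRT1, was higher past it in the FoxO3 depletion.

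Of 14 acetyltransferases and coactivators, 3 were lower past 1.5-fold and 0 higher in both comparisons with the control, where 16.7% and 12.3% of all genes were lower, with medians of -0.09 and -0.07. HAT1, which acetylates newly made histone H4, stood at 34.8, 13.9 and 16.1 FPKM, NCOA2, a nuclear receptor coactivator, at 13.0, 5.91 and 7.45, and KAT6B at 6.73, 4.01 and 3.78. After GC adjustment HAT1 and NCOA2 were still past 1.5-fold in both comparisons, at -0.77 and -0.97 in the FoxO3 depletion, and KAT6B was not, at -0.56.

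Of the complexes of HDAC1 and HDAC2, SIN3 had 2 of 15 lower and 0 higher in each comparison with the control, near the 16.7% and 12.3% of all genes, the chromatin-binding subunits ARID4A, at 11.9, 5.07 and 5.65 FPKM, and ARID4B, at 17.4, 7.37 and 10.3. After GC adjustment ARID4B was past 1.5-fold in the FoxO3 depletion alone, at -0.73, and ARID4A in neither. NuRD had 0 of 12 past it, with medians of 0.17 and 0.01. Of 9 genes of CoREST and MiDAC, 2 were lower in the FoxO3 depletion and 1 in the double depletion, with 0 higher. RCOR1, the CoREST scaffold, stood at 52.6, 33.4 and 29.2 FPKM, and RCOR3 at 30.2, 19.2 and 21.7. After GC adjustment RCOR1 was past 1.5-fold in the double depletion alone, at -0.71 against -0.578 in the FoxO3 depletion, and RCOR3 in neither.

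Of 14 analysed transcription factors that recruit NCoR, 3 were lower and 1 higher in each comparison with the control, against 16.7% and 12.3% of all genes lower and 4% and 4.02% higher. RBPJ, the DNA-binding factor of Notch signalling, stood at 272.3, 118.0 and 104.2 FPKM, log2 ratios of -1.20 and -1.38, or -0.79 and -1.03 after GC adjustment. ZBTB33 (Kaiso) stood at 15.3, 6.12 and 7.81 FPKM and the heme receptor NR1D2 at 42.9, 23.1 and 27.0, both under 1.5-fold after GC adjustment. RARA, the retinoic acid receptor alpha, was the 1 higher gene, at 15.7, 25.6 and 24.7 FPKM, with log2 ratios of 0.68 and 0.63, or 0.62 and 0.50 after GC adjustment. Over the 14 genes the medians were 0.04 and -0.02.

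**Figure D5:**
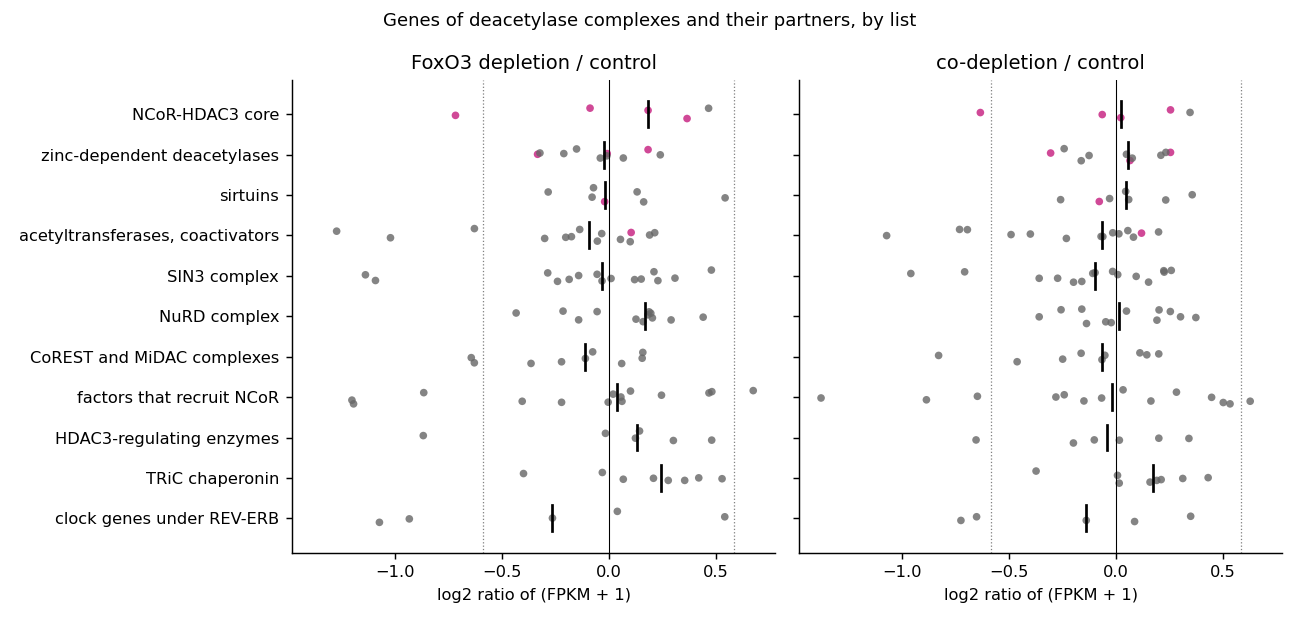
Log2 ratio of (FPKM + 1) to the control of each analysed gene in 11 lists, for the FoxO3 depletion (left) and the double depletion (right), with members coloured, list medians as black bars and dotted lines at 1.5-fold. List medians lie between -0.26 and 0.24, and genes past the left dotted line outnumber those past the right one.

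The genes whose pattern over the 3 libraries was most like that of HDAC3 were sought among 9518 protein-coding genes with a mean of at least 5 FPKM, by the distance between the pairs of log2 ratios to the control. The nearest was MBD3, a NuRD subunit, at a distance of 0.0013, with 73.0, 83.0 and 87.2 FPKM. The cyclin gene CCND1, at 816.1, 930.1 and 973.7 FPKM, followed at 0.0044, and then came WDR77 at 0.0070, MRPL32 at 0.0074 and PHPT1 at 0.0084. With 701 genes closer than 0.1, the pattern of HDAC3 is a common one in these libraries.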

How the data were processed

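The deposited values are FPKM per Ensembl gene, 1 file per library, computed by the authors; the submitters' processing notes name TopHat2 2.0.9, while the sources used here give no read counter, genome build, annotation or strand setting. Libraries were made from 3 ug of total RNA, per the labels' protocols. The members and lists were chosen with earlier results of these data known. GENCODE 29 named 45342 of 48162 IDs, and promoter sequences are from RefSeq.

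Library totals came from the commonest product of FPKM and length among genes with 1 transcript. Whole reads, up to a common factor, were then found for 20587 of 20591 genes above 0 in at least 2 libraries, with a tolerance of 0.0001 reads, against 0.15% of 2000 random values. The inferred library totals of the single and the double depletion were 74.2% and 84.6% of that of the control. Intervals are at 95%.

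Ratios were log2 of (FPKM + 1) over (FPKM + 1), which understates differences of low genes, for named genes with a mean of at least 1 FPKM, called at 1.5-fold. No count test was run on FPKM without replicates. GC adjustment subtracted the median of 50 bins. Named genes were the members, FOXO3, GMNN, DICER1, up to 4 genes per list past 1.5-fold against the control, the paralogues HDAC8 and CREBBP, and the 5 genes most like HDAC3; CORO2A, CRY1 and NR1D1 were added after their values were seen. A few listed genes were left out and are not reported here. Recovery, intervals and adjustment were tested on simulated data (Python 3.11.15, scipy 1.17.1, pandas 2.3.3).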

Additional observations from a re-analysis of the deposited data

How the results depend on the processing

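No paired analysis was possible because each group holds 1 library. TBL1XR1 was the 1 of 8 members past 1.5-fold in each comparison with the control. The count in the double depletion was 0 after rescaling by the median ratio of all genes and after adjustment for GC content or for GC content and length. With a 2-fold rule it was 0 in both comparisons. With a looser rule, a log2 ratio of 0.32 in size, it was 3 in the FoxO3 depletion (HDAC2, TBL1X and TBL1XR1) and 1 between the depleted libraries (TBL1X), where it had been 0. In the FoxO3 depletion the count stayed at 1 after GC adjustment, but the gene was SIRT1, upward, in place of TBL1XR1. Pseudocounts of 0.1 and 0.5, a minimum mean of 5 FPKM, no minimum, TPM and protein-coding genes alone gave the reported counts in all 3 comparisons. Over all these alternatives the log2 ratio of HDAC3 ran from -0.01 to 0.27 in the FoxO3 depletion and from 0.13 to 0.32 in the double depletion. No named gene past 1.5-fold in the reported values changed sign in that comparison, though TBL1XR1 came to 0.00 after GC adjustment in the FoxO3 depletion. HDAC2, under 1.5-fold, ran from -0.37 to 0.28 in the FoxO3 depletion and from -0.34 to 0.18 in the double depletion, above 0 only with GC adjustment. The ratios of GPS2 rest on 6 to 14 reads.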

Other observations

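Genes that act on HDAC3 itself were also measured. Of 6 genes for its kinase, its phosphatase and the enzyme that makes its inositol phosphate cofactor, 1 was lower past 1.5-fold in both comparisons with the control and 0 higher, against the 16.7% and 12.3% of all genes lower. That gene was IPMK, at 4.44, 1.985 and 2.46 FPKM in the control, the single and the double depletion, with a GC content of 34.5% and log2 ratios of -0.07 in both comparisons after GC adjustment. The 8 subunits of the TRiC chaperonin, which folds HDAC3 before it joins its complex, had medians of 0.24 and 0.17, with 0 past 1.5-fold. Of these, 6 were above 0 in the FoxO3 depletion and 7 in the double depletion, where 5425 and 5527 of the 12649 analysed genes were.

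Among 5 clock genes that the REV-ERB receptors are known to repress with NCoR and HDAC3, 2 were lower past 1.5-fold and 0 higher in both comparisons with the control, where 16.7% and 12.3% of all analysed genes were lower. After GC adjustment 1 was lower in each comparison and 1 higher in the FoxO3 depletion. NPAS2 stood at 68.0, 35.2 and 40.8 FPKM, with log2 ratios of -0.93 and -0.72, or -0.999 and -0.79 after GC adjustment. CLOCK stood at 46.6, 21.6 and 29.3 FPKM and was not past 1.5-fold after that adjustment, at -0.45 and -0.17. CRY1 stood at 27.7, 40.8 and 35.6 FPKM, with log2 ratios of 0.54 and 0.35, or 0.68 and 0.495 after GC adjustment, the former past 1.5-fold upward. The REV-ERB genes themselves were also measured. NR1D1, which encodes REV-ERB alpha, stood at 4.90, 5.33 and 6.18 FPKM. The ratio of NR1D1 to the control was 1.09 (0.88 to 1.35) in the FoxO3 depletion, an interval that spans 1. In the double depletion it was 1.26 (1.03 to 1.54). NR1D2, which encodes REV-ERB beta, stood at 42.9, 23.1 and 27.0 FPKM. Its log2 ratios were -0.86 and -0.65, or -0.36 and -0.23 after GC adjustment.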
